A study of Mus musculus with 32 samples.

Results

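Nuclear receptors that sense lipids, with a coactivator, were followed from grafted monocytes to sorted graft-derived cells of colon and ileum. They are the 3 peroxisome proliferator-activated receptors (PPARs) Ppara, Ppard and Pparg, the liver X receptors (LXRs) Nr1h2 and Nr1h3, the retinoid X receptors (RXRs) Rxra and Rxrb, and the coactivator Ppargc1a. The genes were chosen by name, and 8 of the 8 symbols were found in both count tables, which hold 24411 and 24421 genes. All 8 passed the filter on low counts in both fits, but Ppara, Pparg, Nr1h3 and Ppargc1a did so only through gut libraries.

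The graft consisted of Ly6C+ bone marrow (BM) monocytes of Cx3cr1 GFP/+ donors according to the methods of the study, whereas the sample labels name blood and the CD11c-DTR genotype for these 3 libraries. Recipients were irradiated mice reconstituted with CD11c-DTR bone marrow, in which diphtheria toxin (DTx) kills cells that express the toxin receptor from the CD11c promoter, and DTx was given before and throughout the engraftment. Graft-derived cells were sorted by CD45.1 and CX3CR1-GFP according to the methods, whereas the labels give the marker set CD45+ CD11b+ CD64+ Ly6C- MHCII+. They came from colon on day 4 (3 libraries), day 8 (3) and day 12 (4) and from ileum on days 4, 8 and 12 (4 each). In a second model the toxin receptor was driven by CX3CR1, and 6 colonic libraries of day 14 carry its label. All 6 were used here, although 4 repeats are listed for this group in the data set description. The gut libraries of all groups share irradiation and DTx, so that they describe refilling of an emptied niche and not the undisturbed gut. A further colon day 8 library, replicate 1, was not used by the study and enters only where named.

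PPARs bind fatty acids and their oxidised derivatives, whereas LXRs bind oxysterols and thereby report the cholesterol load of a cell. Both act on DNA as heterodimers with an RXR, and Ppargc1a encodes a coactivator of PPARs that promotes mitochondrial biogenesis and fatty acid oxidation. In macrophages Pparg and Nr1h3 are known for lipid uptake, cholesterol efflux and the clearance of dying cells, and Pparg is also well known from the epithelium of the colon.

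Sequencing covered the 3′ ends of transcripts and gave 591817 to 5228664 reads on genes in libraries of the CD11c-DTR model, and 1223772 to 4218027 in those of the CX3CR1-DTR model. Levels are given as normalised reads, that is counts per 10000000 mapped reads, and 1 read is worth 1.17 to 9.22 of them. Values of 3 counts or fewer are read as no more than a floor, a limit that reflects counting error alone. The counts are not divided by transcript length, so each gene is compared with itself across groups and not with other genes.

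Markers of other cells were prominent in the sorted libraries, and this bears on every value below. The sum of 12 intestinal epithelial markers such as Epcam and Vil1 was 36.8 to 58.9 normalised reads in the graft, 102655 to 163084 in the colonic libraries and 19407 to 128219 in the ileal libraries. Of these markers 4 were at 0 in the graft (Krt20, Vil1, Cldn3 and Tspan8) and none in the gut groups. The sum of 11 macrophage markers was 66678 to 91113 in the graft, 5144 to 27265 in colon and 12440 to 132011 in ileum. By the test described below, these markers moved in both directions from the graft. In colon on day 4, 3 were higher and 7 lower (35.9% and 24.5% of all genes). In ileum on day 12 it was 4 and 2 (35.9% and 20%). The sum of 8 pan-leukocyte markers was 80838.5 to 89371 in the graft, 1880 to 7697 in colon and 5237 to 37231 in ileum. In bulk samples, fewer cells of a type and less RNA per cell cannot be told apart. The 2 ileum day 4 libraries of experiment 1 (replicates 2 and 3) stood apart and went against their label. Their sums of 7 colonic enterocyte markers were 38465 and 35169, above those of every colonic library (13982 to 26895), whereas the other ileum day 4 libraries had 3143 and 4508. Results on the 8 genes, and the list counts against the graft, that rest on them are given also without them. This is written below as without experiment 1, although only these 2 libraries were left out. Graft, colon day 12 and ileum day 12 libraries of that experiment stayed in the fit.

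The start regions of 3 members are shown because the counts come from the opposite ends of the genes and cannot say which promoter was used. The RefSeq promoter table used here holds 3 start sites for Pparg, 2 for Nr1h3 and 1 for Ppargc1a, and transcripts named in the count tables begin at further positions for Pparg and Ppargc1a. The windows run from 250 bases before to 50 bases after the start, and capitals mark the nuclear receptor half-site AGGTCA on either strand. In mm9 they lie on the plus strand at chr6:115310912-115311211 and chr6:115371834-115372133 for starts 1 and 3 of Pparg, and on the minus strand at chr2:91035143-91035442 for start 2 of Nr1h3 and chr5:51958915-51959214 for Ppargc1a.
Pparg promoter 1: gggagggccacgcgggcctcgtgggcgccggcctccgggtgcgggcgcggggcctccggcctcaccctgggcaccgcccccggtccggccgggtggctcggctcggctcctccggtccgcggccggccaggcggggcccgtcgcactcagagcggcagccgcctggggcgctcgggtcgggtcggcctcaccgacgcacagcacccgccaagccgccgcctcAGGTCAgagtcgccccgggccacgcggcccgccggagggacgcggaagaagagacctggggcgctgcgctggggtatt
Pparg promoter 3: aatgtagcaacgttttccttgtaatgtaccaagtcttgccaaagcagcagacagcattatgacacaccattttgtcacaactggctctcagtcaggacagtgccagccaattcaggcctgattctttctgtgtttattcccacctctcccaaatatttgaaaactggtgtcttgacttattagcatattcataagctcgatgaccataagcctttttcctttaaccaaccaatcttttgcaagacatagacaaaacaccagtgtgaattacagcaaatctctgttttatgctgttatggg
Nr1h3 promoter 2: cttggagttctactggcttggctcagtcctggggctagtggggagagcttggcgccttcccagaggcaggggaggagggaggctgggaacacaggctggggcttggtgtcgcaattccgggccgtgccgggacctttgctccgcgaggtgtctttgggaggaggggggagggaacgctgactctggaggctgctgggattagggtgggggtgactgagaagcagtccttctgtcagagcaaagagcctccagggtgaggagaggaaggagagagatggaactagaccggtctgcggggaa
Ppargc1a promoter 1: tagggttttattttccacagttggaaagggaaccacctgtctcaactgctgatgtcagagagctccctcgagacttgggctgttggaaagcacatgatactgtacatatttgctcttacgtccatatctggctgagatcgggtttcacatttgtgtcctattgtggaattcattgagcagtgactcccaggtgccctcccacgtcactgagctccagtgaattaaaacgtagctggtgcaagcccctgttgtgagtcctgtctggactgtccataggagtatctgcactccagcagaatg
A half-site begins 28 bases before start 1 of Pparg and another 9 bases before start 2, and none was found in the other windows printed. Among the 13 windows of the 8 genes, 3 from 2 genes (Pparg and Rxra) held the half-site, against 16.3% of the 32851 windows in the RefSeq table. The repeats AGGTCANAGGTCA and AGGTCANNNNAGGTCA, known as the spacings bound by PPAR:RXR and LXR:RXR, were found in 0 of the 13 windows and in 0.0396% and 0.0152% of all windows. These are matches of letters and not bound sites.

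In the CD11c-DTR model, all 3 PPAR genes, Nr1h3 and Ppargc1a were higher in colonic cells than in the graft on each day, whereas Rxrb was lower. By edgeR's quasi-likelihood test with Benjamini-Hochberg adjustment, 5 of the 8 genes were called higher and 1 lower in colon on day 4, where 35.9% and 24.5% of the 11842 genes tested were called (60.4% in either direction). On day 8, 5 were higher and 2 lower (35.2% and 23.9% of all genes, 59.1% in all), and on day 12 again 5 were higher and 2 lower (37.7% and 24.9%, 62.6% in all). In ileum, 5 were higher and 2 lower on day 4 (36.2% and 20.5%, 56.7% in all), and 4 and 2 without the libraries of experiment 1 (32.3% and 16.9%). On later days 4 were higher and 0 lower on day 8 (34.3% and 19.5%, 53.9% in all), and 4 higher and 1 lower on day 12 (35.9% and 20%, 55.9% in all). The median log2 fold change of the 8 genes was 2.8, 2.91 and 2.86 in colon and 2.46, 1.1 and 1.37 in ileum on days 4, 8 and 12, beside medians of 0.2 to 0.24 over all genes. Ppara, Pparg, Nr1h3 and Ppargc1a passed the filter on low counts only through gut libraries, which favoured a higher call in advance. The counts and medians are therefore not read as a trait of the 8 genes. All 6 comparisons share the 3 graft libraries. Scaled to library totals in place of TMM, the median of all genes moved to between -0.35 and -0.04, and the share of higher genes among those called moved from between 59.5 and 64.2% to between 42.4 and 51.1%. Small fold changes are therefore read against this shift.

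**Figure D1:**
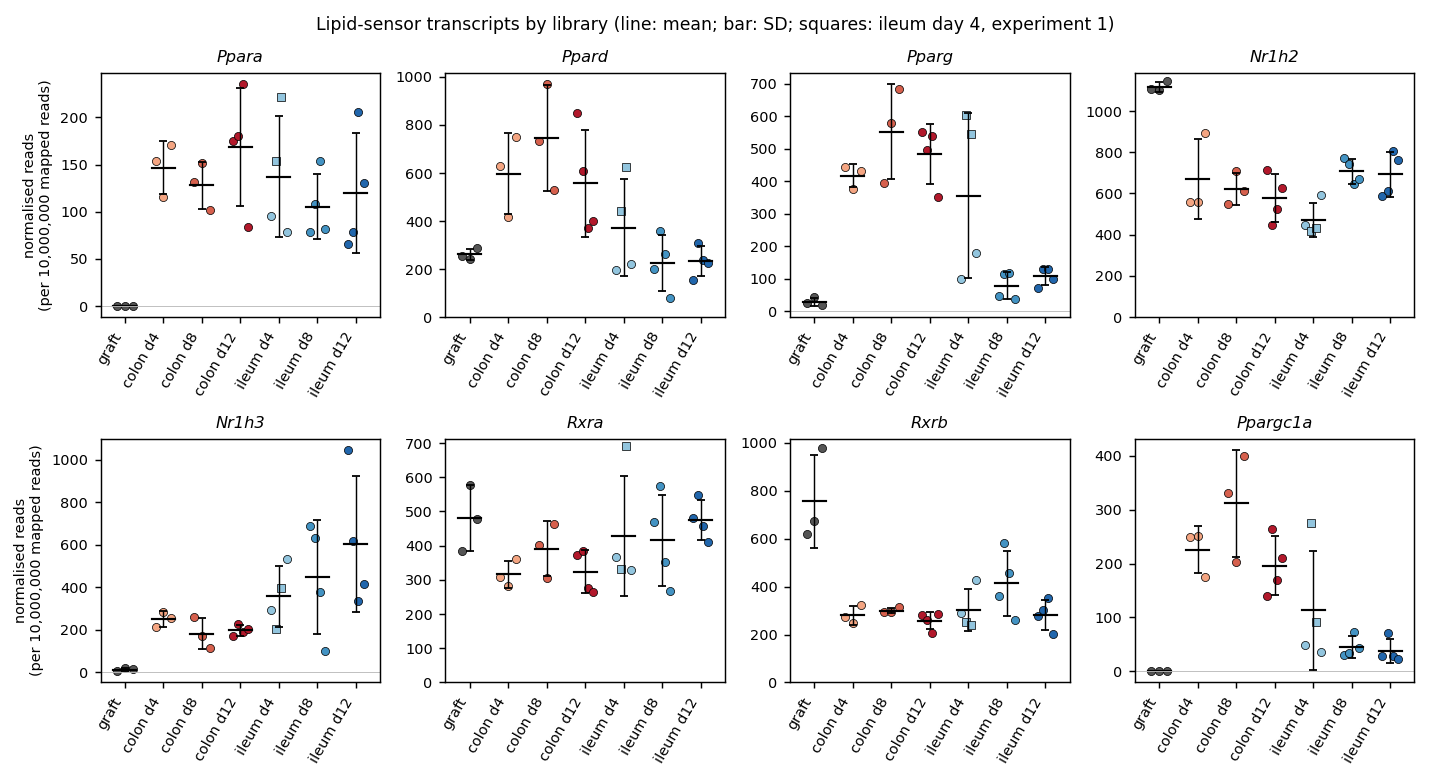
Normalised reads (vertical axis, per 10000000 mapped reads) of the 8 genes in the graft and in colonic and ileal cells of days 4, 8 and 12. Points are libraries, lines are means and bars the SD, and squares are the ileum day 4 libraries of experiment 1. Ppara and Ppargc1a lie at 0 in all 3 graft libraries, and the squares of Pparg lie among the colonic points.

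Pparg encodes the PPAR that drives lipid storage and uptake genes such as Fabp4. In the graft it had 25.3, 44.6 and 19.4 normalised reads. In colon it had 443, 377 and 431 on day 4, 395, 579 and 682 on day 8, and 553, 495, 538 and 351 on day 12. All 10 colonic values lay above all graft values, with log2 fold changes of 4.1 ± 0.54 (SE), 4.44 ± 0.54 and 4.33 ± 0.53 (edgeR adjusted p = 7.51e-07, 2.59e-07 and 2.27e-07). The ileal libraries of day 4 had 99.1, 602, 544 and 178. The middle 2 of these, both of experiment 1, were at the colonic level, and the outer 2 were far below it. On day 8 ileum had 48.8, 115, 117 and 37.4 and on day 12 it had 72.4, 132, 130 and 101. These are above the graft by 1.88 ± 0.53 on day 8, where the ranges overlap, and by 2.28 ± 0.51 on day 12, where they do not (edgeR adjusted p = 0.00418 and 0.000588). The day 4 ileal rise was 3.98 ± 0.53 (adjusted p = 1.08e-06) with all libraries and 2.50 ± 0.42 without those of experiment 1 (adjusted p = 3.19e-05). A test of equal variances on log2 values did not call ileum day 8 (adjusted p = 0.137).

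Ppard, a PPAR with broad tissue expression, was present in the graft at 255, 242 and 288 normalised reads. Colonic cells had 629, 415 and 748 on day 4, 733, 971 and 529 on day 8, and 850.5, 607, 373 and 399 on day 12, all above the graft. The log2 fold changes were 1.51 ± 0.39, 1.75 ± 0.39 and 1.39 ± 0.37 (edgeR adjusted p = 0.00202, 0.000569 and 0.00249). Ileal cells did not stand clear of the graft, with 198, 442, 627 and 221 on day 4, 201, 357, 261 and 81.6 on day 8, and 156, 308, 239 and 226 on day 12. On day 4 the difference of 0.94 ± 0.38 passed the test (adjusted p = 0.0366), but without the libraries of experiment 1 it was 0.06 (adjusted p = 0.913). With experiment as a block it was 0.70 (adjusted p = 0.082), and the call was also lost without any 1 graft library (0.0535 to 0.103) or without ileum day 4 replicate 2 (0.0844) or 3 (0.195). The differences of 0.27 and 0.28 on days 8 and 12 were not called and turned negative when scaled to library totals.

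Ppara, the PPAR best known for fatty acid oxidation in liver, was not read in any graft library. It had 154, 116 and 171 normalised reads in colon on day 4, 132, 151 and 102 on day 8, and 175, 181, 235 and 84.1 on day 12. The ileal values were of the same order, 95.7, 154, 221 and 78.5 on day 4, 78.6, 108, 154 and 81.6 on day 8, and 65.7, 78.9, 205 and 130 on day 12. Every gut library thus had reads of Ppara and no graft library did. Against the graft floor, a mean of 7.17 normalised reads, the colonic means were at least 20.5-, 17.9- and 23.5-fold higher and the ileal means at least 19.2-, 14.7- and 16.7-fold higher on days 4, 8 and 12 (edgeR adjusted p between 9.79e-09 and 5.56e-08). Without the libraries of experiment 1, the ileal mean of day 4 was at least 12.2-fold higher (adjusted p = 3.59e-07).

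Nr1h3 encodes LXRα, the LXR enriched in macrophages, intestine and liver. In the graft it was nearly absent, with 2.81, 17.4 and 14.5 normalised reads. Colonic cells had 212, 282 and 256 on day 4, 260, 170 and 115 on day 8, and 169, 227, 186 and 203 on day 12. Ileal cells had 291, 203, 396 and 535 on day 4, 686, 630, 378 and 98.6 on day 8, and 1048, 616, 333 and 414 on day 12. The 22 gut libraries lay above the 3 graft libraries without exception, and the day 12 ileal library of 1048 was the highest of all. The log2 fold changes against the graft were 4.66 ± 0.63, 4.07 ± 0.63 and 4.33 ± 0.62 in colon and 5.22 ± 0.63, 5.64 ± 0.63 and 6.07 ± 0.64 in ileum (edgeR adjusted p between 3.67e-08 and 7.86e-06). Without experiment 1 the value of ileum day 4 was 5.38 ± 0.67.

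Nr1h2 encodes LXRβ, the widely expressed LXR, and was the receptor of the pair that the monocytes already had. The graft had 1106, 1102 and 1145 normalised reads, above every gut library of the CD11c-DTR model. Colonic cells had 559, 557 and 893 on day 4, 550, 707 and 610 on day 8, and 716, 448, 523 and 628 on day 12. Ileal cells had 446, 416, 433 and 592 on day 4, 773, 745, 646 and 670 on day 8, and 589, 613, 806 and 763 on day 12. After TMM it fell by 0.59 ± 0.22 and 0.60 ± 0.20 in colon on days 8 and 12 and by 0.82 ± 0.21 in ileum on day 4 (edgeR adjusted p = 0.0244, 0.0128 and 0.00163). Without experiment 1 the last of these was -0.74 (adjusted p = 0.0185). The other differences were -0.41 in colon on day 4 and -0.10 and -0.21 in ileum on days 8 and 12, and were not called (adjusted p = 0.113, 0.718 and 0.395). Scaled to library totals these 3 were -0.74, -0.66 and -0.69 and all passed (adjusted p = 0.00777, 0.01 and 0.00719). The direction was the same under both scalings, and the calls in colon on day 4 and in ileum on days 8 and 12 depend on the scaling. The day 4 colonic difference passed without colon day 4 replicate 3 (-0.64, adjusted p = 0.0235). With replicate 1 of colon day 8 added, at 758, that day's call was lost (adjusted p = 0.143), as it was without graft replicate 3 (0.067) or colon day 8 replicate 2 (0.0987).

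Rxrb, one of the RXR partners, was lower in gut cells of the CD11c-DTR model. The graft had 618, 672 and 978 normalised reads, and colonic cells had 272, 246 and 321 on day 4, 294, 292 and 314 on day 8, and 282, 262, 205 and 285 on day 12. All colonic values lay below the graft, and the gene fell by 1.11 ± 0.23, 1.08 ± 0.23 and 1.21 ± 0.21 on the log2 scale (edgeR adjusted p = 0.000232, 0.000295 and 2.93e-05). In ileum it had 291, 252, 240 and 428 on day 4, 361, 580, 455 and 262 on day 8, and 276, 301, 351 and 201 on day 12. It fell by 0.92 ± 0.22 on day 4 and by 0.97 ± 0.21 on day 12 (adjusted p = 0.000883 and 0.000409), and the day 4 difference was -0.72 without experiment 1 (adjusted p = 0.0247). On day 8 the difference was -0.36 ± 0.21 (adjusted p = 0.159), and -0.87 when scaled to library totals (adjusted p = 0.00551).

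Rxra, the RXR abundant in liver and myeloid cells, was not called against the graft on any day of the CD11c-DTR model. It had 385, 577 and 477 normalised reads in the graft and 264 to 465 in the colonic libraries. Colonic values of days 4 and 12 lay below the graft and those of day 8 overlapped it. The ileal libraries had 367, 331, 691 and 328 on day 4, 469, 573, 351 and 269 on day 8, and 482, 549, 458 and 410 on day 12. The log2 fold changes were -0.27 ± 0.28, -0.03 ± 0.28 and -0.24 ± 0.26 in colon and 0.28 ± 0.27, 0.31 ± 0.26 and 0.45 ± 0.26 in ileum (adjusted p between 0.147 and 0.924). The ileal values turned negative when scaled to library totals, so that no direction is given for this gene.

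Ppargc1a encodes PGC-1α, the coactivator. It was not read in the graft, and had 249.1, 252 and 175 normalised reads in colon on day 4, 331, 204 and 400 on day 8, and 140, 265, 169 and 211 on day 12. The colonic means were at least 31.4-, 43.5- and 27.4-fold higher than the graft floor. Ileal cells had 49.5, 275, 92.2 and 35.7 on day 4, 29.8, 33.7, 73.6 and 44.2 on day 8, and 29.4, 71.4, 28.6 and 23.7 on day 12. The ileal means were at least 15.8-, 6.33- and 5.34-fold higher than the floor. The day 4 libraries of 275 and 92.2 are those of experiment 1, and without them the mean was at least 5.94-fold higher (adjusted p = 8.65e-06). By the equal-variance test ileum day 4 did not pass (adjusted p = 0.0692). All 6 differences passed the main test (edgeR adjusted p between 6.09e-08 and 4.06e-05).

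**Figure D2:**
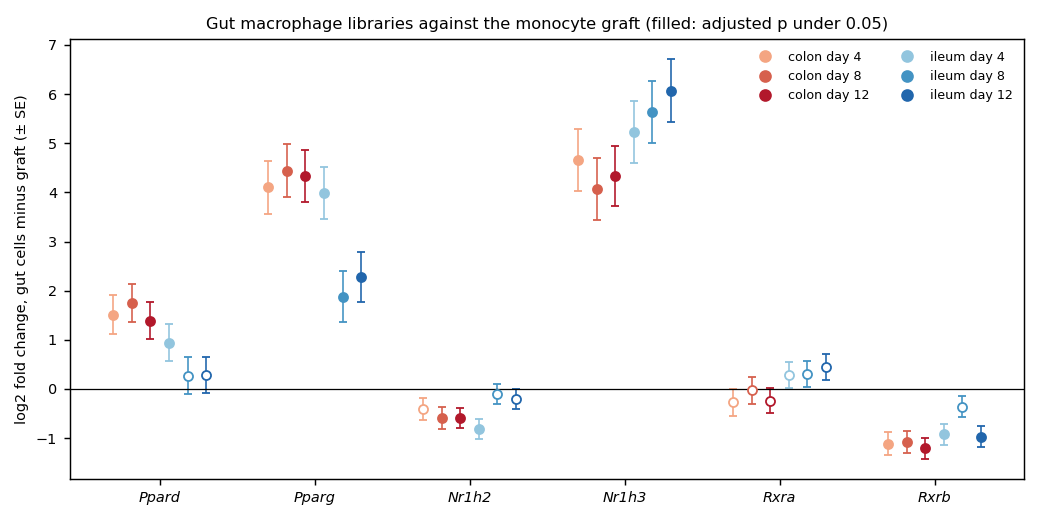
Log2 fold changes of gut cells minus the monocyte graft (vertical axis, TMM scaling) with SE for the 6 genes that were read in the graft. Filled points passed an adjusted p of 0.05. Nr1h3 lies between 4.07 and 6.07 on all days, Pparg falls from about 4 in colon to 1.88 in ileum on day 8, and Rxra has no filled point.

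Pparg, Ppard, Ppargc1a and Nr1h3 were called between colon and ileum on both days 8 and 12, each RXR gene was called on 1 of these days, and the comparison on day 4 turned on the libraries of experiment 1. On day 8, 3 genes were higher in colon (Pparg, Ppard and Ppargc1a) and 2 lower (Nr1h3 and Rxrb), where 16.7% and 18.3% of all genes were called (35% in all). On day 12 the same 3 were higher and 2 were lower (Nr1h3 and Rxra), where 15.3% and 17.2% of all genes were called (32.5% in all). On day 4, 0 of the 8 genes were called, beside 3.18% of all genes (0.524% higher and 2.66% lower in colon). The ranges of all 8 overlapped, and the share of all genes with overlap was not counted. Without the 2 libraries of experiment 1, Ppargc1a, Pparg and Ppard were higher in colon on day 4 as well. In that fit 3069 of the 11842 genes were called (12.9% higher and 13% lower). The ileum day 4 group was then left with 2 libraries, both of experiment 2 and of the same date. No colon day 4 library is of experiment 1, so on this day that experiment was present in ileum alone. Its effect cannot be told apart from that of the segment.

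Pparg was higher in colon by 2.56 ± 0.45 on day 8 and 2.05 ± 0.41 on day 12 on the log2 scale (edgeR adjusted p = 0.000341 and 0.000988), in 3 of 3 and 4 of 4 colonic libraries. On day 4 the difference was 0.12 ± 0.42 with all libraries (adjusted p = 0.915) and 1.60 ± 0.38 without experiment 1 (adjusted p = 0.0037). Ppargc1a was higher in colon by 2.49 ± 0.52 and 2.33 ± 0.50 on days 8 and 12 (adjusted p = 0.00133 and 0.00167), and on day 4 by 0.81 ± 0.49 with all libraries (adjusted p = 0.354) and 2.29 ± 0.52 without experiment 1 (adjusted p = 0.00301). Neither gene's colonic and ileal values overlapped on day 8 or day 12. Ppard was higher in colon by 1.48 ± 0.36 and 1.11 ± 0.34 (adjusted p = 0.0036 and 0.0152), and the day 12 call was lost without colon replicate 1 (0.0561) or ileum replicate 1 (0.0516). For Ppara the differences were -0.02 and 0.37 and were not called (adjusted p = 0.984 and 0.476).

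Nr1h3 differed in the opposite direction, by -1.56 ± 0.47 on day 8 and -1.75 ± 0.42 on day 12 (edgeR adjusted p = 0.0134 and 0.00342). On day 12 the highest colonic value (227) lay below the lowest ileal value (333), whereas on day 8 the ileal library of 98.6 lay below all 3 colonic ones. With the unused colon day 8 library, which had 577 normalised reads of Nr1h3 and a macrophage marker sum of 99072, the day 8 difference was -0.76 (adjusted p = 0.292). Leaving out colon day 8 replicate 3 or 4 or ileum day 8 replicate 1 also ended the call (adjusted p = 0.0508, 0.0807 and 0.0512). The RXR calls were small and were lost when single libraries were left out or the scaling was changed. Rxrb differed by -0.72 ± 0.22 on day 8 (adjusted p = 0.0131), with 0.109 when the unused library was added and 0.0511 without colon day 8 replicate 3. Scaled to library totals its adjusted p was 0.175, and by the equal-variance test 0.36. Rxra differed by -0.69 ± 0.24 on day 12 (adjusted p = 0.0326), and the call was lost without any 1 of 6 colonic or ileal day 12 libraries (adjusted p between 0.0535 and 0.0819), with library totals (0.103), without the filter (0.0611) and by the equal-variance test (0.0591).

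**Figure D3:**
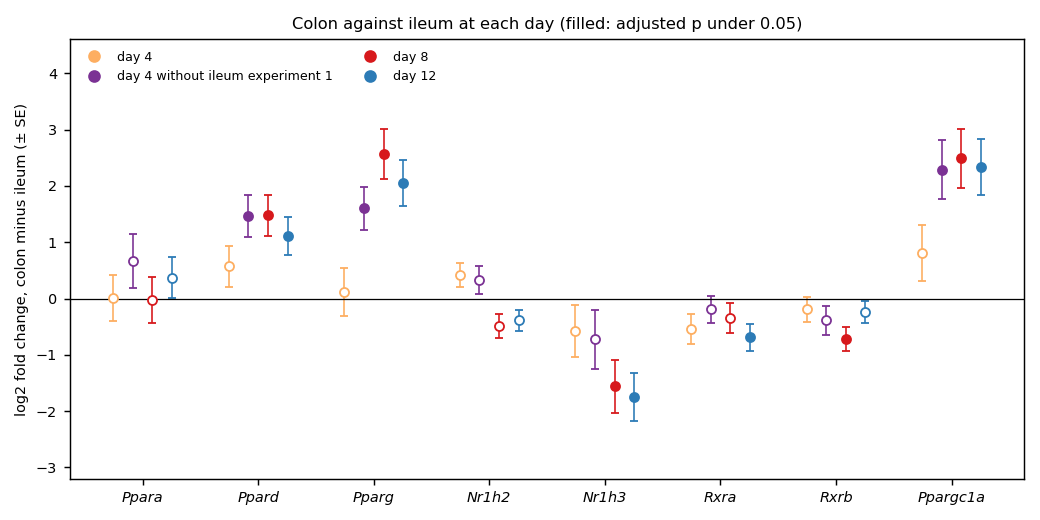
Log2 fold changes of colon minus ileum (vertical axis) with SE for the 8 genes on days 4, 8 and 12, and on day 4 without the ileal libraries of experiment 1. Filled points passed an adjusted p of 0.05. Pparg, Ppard and Ppargc1a lie above 0 and Nr1h3 below 0 on days 8 and 12.

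The epithelial and macrophage markers moved with these genes. On day 12, 11 of 12 epithelial markers were higher in colon and 10 of 11 macrophage markers were lower, and on day 8 it was 8 of 12 and 9 of 11. The epithelial sum was 142309 to 151238 in colon and 24949 to 49852 in ileum on day 8, and 102655 to 140745 and 19407 to 48382 on day 12. Set against these sums, Pparg had 26 to 47.9 reads per 10000 epithelial marker reads in colon and 12.5 to 32.2 in ileum on day 8, and 28.9 to 48.2 and 26.9 to 37.3 on day 12. Ppargc1a had 13.6 to 28.1 and 9.47 to 14.8 on day 8 and 9.96 to 25.8 and 5.91 to 15.3 on day 12, and Ppard 37.2 to 64.6 and 27.3 to 100 on day 8. On this scale the colonic and ileal ranges of these genes overlapped, although their levels did not. Ppara was higher per epithelial marker read in ileum (27.3 to 31.5) than in colon (7.16 to 10.1) on day 8 and on day 4 (12 to 33.6 and 7.92 to 10.9), whereas the ranges overlapped on day 12 (16.9 to 42.5 and 6.91 to 18.9). The part of epithelial RNA in the differences was not tested.

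In the ileum day 4 libraries the epithelial sum was 28477 and 36553 in experiment 2 and 128219 and 123708 in experiment 1. Per 10000 epithelial marker reads the 4 libraries had 34.8 to 48.8 reads of Pparg, a narrower range than the 99.1 to 602 of its level. Nr1h3 was set against the macrophage marker sum in the same way, although single markers in that sum rose or fell from the graft. It had 0.361 to 2.18 reads per 10000 macrophage marker reads in the graft, 83.4 to 411 in colon and 53.5 to 163 in ileum. Gut and graft libraries did not overlap on this scale either. Between the segments, the ratio was higher in colon without overlap on day 4 (222 to 411 and 89.6 to 163) and day 8 (115 to 178 and 53.5 to 99.6), opposite in direction to the difference in level on day 8. On day 12 the colonic values (83.4 to 222) overlapped the ileal ones (79.4 to 155). The part of macrophage number in the level of Nr1h3 was not tested.

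**Figure D4:**
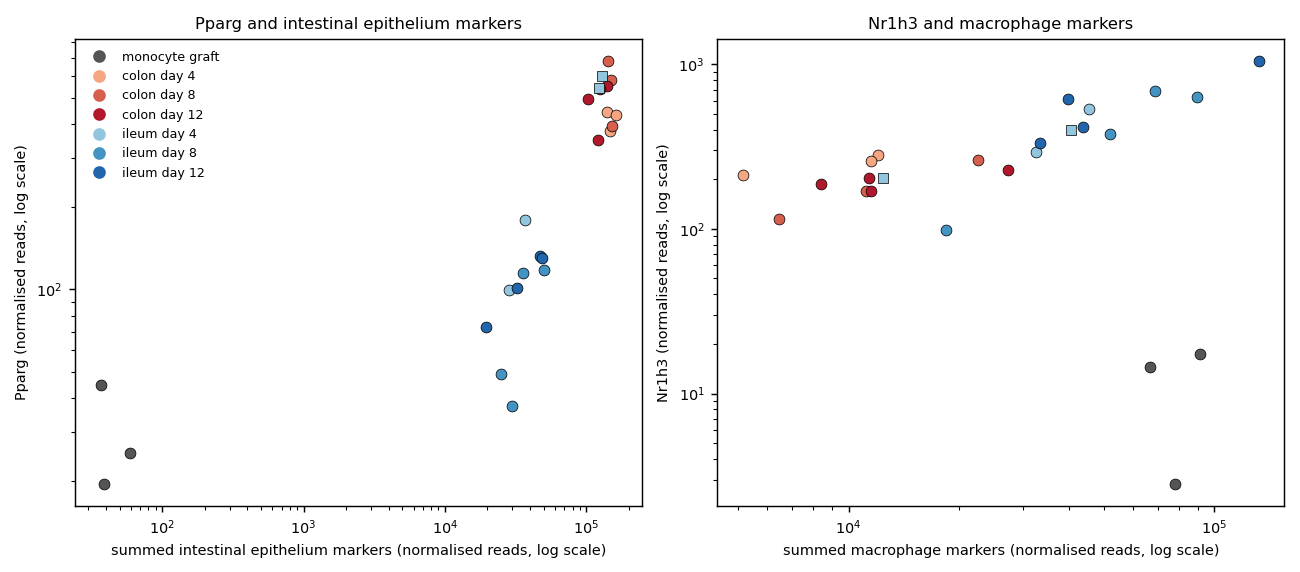
Left, normalised reads of Pparg against the summed epithelial markers. Right, those of Nr1h3 against the summed macrophage markers, both on log axes, with 1 point per library and squares for the ileum day 4 libraries of experiment 1. The squares of Pparg lie with the colonic libraries at epithelial sums of 123708 and 128219, and the graft combines macrophage sums of 66678 to 91113 with the lowest Nr1h3.

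The genes with the most similar pattern differed between the receptors. Over the 25 libraries, as a description of libraries that share cell makeup and depth, the log2 values of Pparg ran closest to those of Entpd5, Tfcp2l1, Fa2h, Tes and Sdcbp2 (Pearson r between 0.975 and 0.979). Nr1h3 ran closest to the complement genes C1qb, C1qc and C1qa and to Mmp14 and Cxcl16 (0.938 to 0.945), of which the complement genes are also on the macrophage list. Rxra ran closest to Arnt, Ddhd2, Fam193b, Ptafr and Sdc3 (0.806 to 0.851). Among the 8 genes, Pparg had its highest r with Ppargc1a (0.906) and Ppard (0.824), and one of 0.137 with Nr1h3.

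Time after engraftment moved few of the 8 genes. In colon, 0 of the 8 were called between days 4 and 8 or days 8 and 12, and edgeR called 0% of all genes in either step, with 204 and 329 genes at an unadjusted p under 0.05 and DESeq2 also at 0. In ileum between days 8 and 12 it was again 0% of all genes, with 796 at an unadjusted p under 0.05. Between days 4 and 8 in ileum, Pparg fell by 2.10 ± 0.43 (edgeR adjusted p = 0.0102) and Nr1h2 rose by 0.73 ± 0.20 (adjusted p = 0.032), 1 of 8 in each direction, where 4.42% of all genes fell and 0.718% rose (5.13% in all). Neither call held without the libraries of experiment 1, where the changes were -0.61 for Pparg (adjusted p = 0.652) and 0.64 for Nr1h2 (adjusted p = 0.504), so that the size moved far for Pparg and little for Nr1h2. The call of Nr1h2 was also lost with library totals (0.0916), without the filter (0.0615) and with all 4 colon day 8 libraries (0.0609). The calls of Pparg and Nr1h2 were both lost in the groups alone (adjusted p = 0.295 and 0.348) and with experiment as a block (0.217 and 0.243). By the equal-variance test neither passed (adjusted p = 0.629 for each). The difference between segments in the change of Pparg from day 4 to day 8 was 2.44 (adjusted p = 0.15), and edgeR called 0 of 11842 genes in that test, with 1469 at an unadjusted p under 0.05, against 160 genes by DESeq2. Pparg was among the latter (2.45, adjusted p = 0.023), and in edgeR it passed without ileum day 4 replicate 1 (2.77, adjusted p = 0.0125) or 4 (2.68, adjusted p = 0.0399). Nr1h2 was also lost without ileum day 4 replicate 2 (0.19) or 3 (0.0564) or ileum day 8 replicate 1 (0.0613) or 4 (0.0942), and Pparg without ileum day 4 replicate 2 (0.109).

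The wider PPAR pathway was described by lists of known genes. Of 16 tested PPAR target genes, 12 were higher and 1 lower in colon than in the graft on day 4, 12 and 2 on day 8, and 12 and 1 on day 12, with medians of 1.56, 1.58 and 1.40 on the log2 scale. The shares over all genes were 35.2 to 37.7% higher and 23.9 to 24.9% lower. In ileum it was 10 and 1, 7 and 1, and 7 and 1, with medians of 1.35, 0.17 and 0.44, beside shares of 34.3 to 36.2% and 19.5 to 20.5%. Without experiment 1 it was 8 and 3 on day 4, with a median of 0.61 and shares of 32.3 and 16.9%. Slc25a20, the mitochondrial carnitine carrier, was higher in colon than in ileum on day 8 by 2.26 ± 0.40 (edgeR adjusted p = 0.000365). Fabp4, a fatty acid carrier, went the other way on that day, with 319 ± 130 normalised reads (SD, n = 3) in colon and 1807 ± 836 (n = 4) in ileum (-2.91 ± 0.75, adjusted p = 0.00521). In that comparison 4 of 5 endothelial and 9 of 11 macrophage markers were also lower in colon, beside 18.3% of all genes. The endothelial sum was 377 to 861 in colon and 1911 to 4283 in ileum. The part of either cell type in the level of Fabp4 was not tested. Between the segments, 9 of the 16 targets were higher and 4 lower in colon on day 8, and 8 and 4 on day 12, where 16.7 and 15.3% of all genes were higher and 18.3 and 17.2% lower.

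Of 14 tested LXR target genes, 6 were higher and 5 lower in colon than in the graft on day 4, 7 and 3 on day 8 and 7 and 4 on day 12. In ileum 8 were higher on each day and 3, 3 and 2 lower, and without experiment 1 it was 7 and 3 on day 4. Beside these counts, all genes had 34.3 to 37.7% higher and 19.5 to 24.9% lower. Abca1, the transporter that loads cholesterol on acceptors, rose to 295 ± 85.7 (SD, n = 4) normalised reads in ileum on day 12 from 10.5 ± 6.04 (n = 3) in the graft, by 5.30 ± 0.68 on the log2 scale (edgeR adjusted p = 6.63e-07). Apoe, an acceptor of cellular cholesterol, had 7251 ± 3564 (n = 3) in the graft and 108708 ± 71153 (n = 4) in ileum on day 12, a log2 fold change of 4.43 ± 0.71 (adjusted p = 1.4e-05). On day 12 the colonic level of Abcg1 and Abca1 differed from the ileal one by -2.01 ± 0.48 and -1.81 ± 0.47 (adjusted p = 0.00298 and 0.00546). Scd2, a fatty acid desaturase, was higher there by 2.40 ± 0.38 (adjusted p = 0.000317). On that day 2 of the 14 targets were higher in colon and 6 lower, and on day 8 it was 4 and 5, beside 15.3 to 16.7% higher and 17.2 to 18.3% lower over all genes. Abcg1 and Abca1 were thus lower in colon, as Nr1h3 was, and Scd2 was not. In the graft Abcg1 had 489 to 497 (n = 3), above its mean in every gut group of the CD11c-DTR model.

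Other partners of RXR included the bile acid receptor Nr1h4, the xenobiotic receptor Nr1i2 and the vitamin D receptor Vdr. All 3 are known from intestinal epithelium. Nr1h4 and Nr1i2 were at 0 in the graft, and in colon on day 4 they had 421 ± 68.9 and 667 ± 69.0 normalised reads (SD, n = 3). Of the 8 such partners tested, 6 were higher and 2 lower than the graft in all 6 comparisons, also without experiment 1. Of 9 genes of sterol synthesis and uptake, 7, 6 and 6 were higher in colon on days 4, 8 and 12 and 7, 5 and 5 in ileum (4 on day 4 without experiment 1), and 5 of the 9 were higher in colon than in ileum on days 8 and 12. Sqle, the squalene epoxidase of sterol synthesis, differed between the segments by 2.23 ± 0.39 on day 8 (edgeR adjusted p = 0.000333). Among 8 enzymes that make ligands, Ptgs1, a prostaglandin synthase, was lower in colon than in ileum on days 8 and 12 (-3.09 and -2.21, adjusted p = 0.000266 and 0.000985). Of 15 other coactivators and corepressors, 4, 3 and 3 were higher and 6, 6 and 7 lower in colon than in the graft, with medians of -0.47, -0.34 and -0.45. The shares over all genes were 34.3 to 37.7% higher and 19.5 to 24.9% lower against the graft, and 15.3 to 16.7% higher in colon than in ileum. The median log2 fold change over all genes in colon was 0.21, 0.22 and 0.24 on days 4, 8 and 12, above those of the coactivator list. Whether any of these lists differs from all genes was not tested. Ppargc1b, the relative of Ppargc1a, rose by 3.93 ± 0.44 on day 4 (adjusted p = 6.69e-08). In these lists too, the markers of epithelium were higher in colon, and their part was not tested.

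CX3CR1-DTR recipients gave a second set of colonic cells, counted in a table of its own and taken on day 14. Model, day and table therefore cannot be told apart. Levels are given here on a scale of counts per 10000000 reads on genes. By edgeR after TMM, all 8 genes were called higher than in the graft. Of the 11718 genes tested, 39.5% were called higher and 36% lower (75.5% in all). Scaled to library totals, Nr1h2 and Rxrb were not called, as given below. The filter on low counts favoured a higher call of Ppara, Pparg, Nr1h3 and Ppargc1a here too. Ppara and Ppargc1a, at 0 in the graft, were at least 9.67- and 2.09-fold above its floor. Pparg had 106, 1045, 736, 917, 569 and 978 reads on this scale, against 36.8, 63.2 and 28.2 in the graft and 809, 840, 960 and 624 in colon on day 12 of the first model. The libraries of 106 and 569 stood below all 4 colonic values, and the other 4 lay within or above them. The log2 fold change was 4.33 ± 0.60 against the graft (edgeR adjusted p = 1.31e-05) and -0.18 ± 0.41 against colon day 12 (adjusted p = 0.72). Nr1h3 had 510 to 735 (median 576, n = 6), above the graft (4.09, 24.7 and 21.1) by 5.35 ± 0.39 and above colon day 12 (248, 386, 332 and 360) by 0.83 ± 0.25 (adjusted p = 1.82e-08 and 0.00998). The ranges of Nr1h3 in both colonic sets did not overlap.

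The other members separated the colonic sets more. Against colon day 12, 5 genes were higher and 2 lower in CX3CR1-DTR colon, where 25.2% and 35.4% of all genes were called (60.7% in all). Ppard had 2902 to 4020 (median 3425, n = 6) against 1245, 1031, 665 and 709, a difference of 1.90 ± 0.19 (edgeR adjusted p = 9.22e-07). Rxrb, Nr1h2 and Rxra were higher by 1.48 ± 0.17, 1.05 ± 0.17 and 0.93 ± 0.17 (adjusted p = 4.32e-06, 0.000108 and 0.00027). The ranges of these 4 genes did not overlap, and the share of all genes without overlap was not counted. Ppargc1a was lower, with 32.7, 17.6, 6.81, 11.4, 52.2 and 9.10 against 205, 449, 302 and 375, and fell by 3.85 ± 0.46 (adjusted p = 1.26e-05). Leaving out 1 library gave -4.52 to -3.63, the former without CX3CR1-DTR replicate 5. Its libraries held 4, 4, 1, 4, 22 and 2 counts, so 2 of the 6 were at the floor. Ppara had 40.9 to 156 (median 108, n = 6) against 257, 307, 419 and 149, a difference of -1.48 ± 0.36 (adjusted p = 0.00302) with overlapping ranges.

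**Figure D5:**
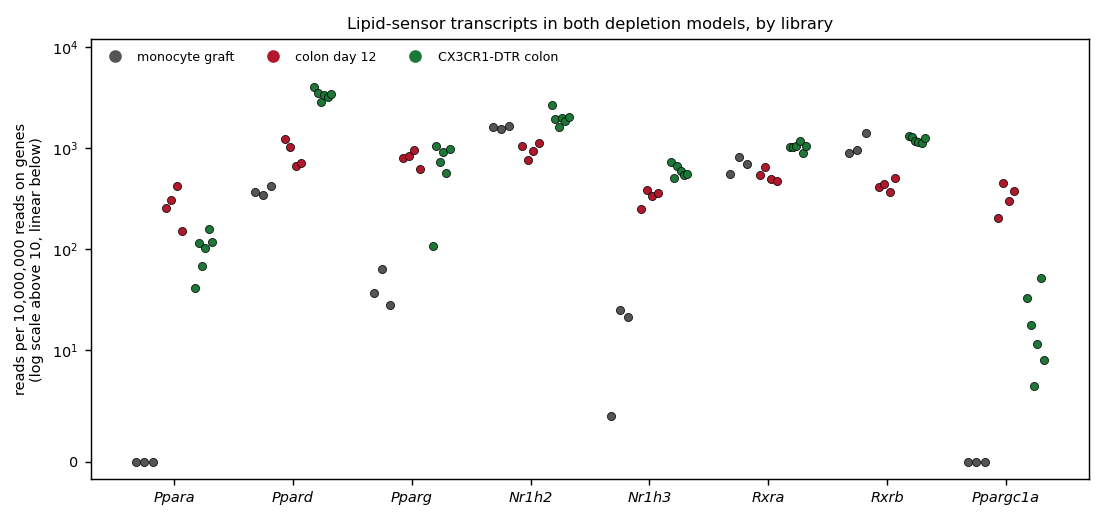
Reads per 10000000 reads on genes (vertical axis, log scale above 10 and linear below) of the 8 genes in the monocyte graft (3 libraries), colon day 12 of CD11c-DTR recipients (4) and CX3CR1-DTR colon (6). Each point is a library. Ppargc1a of CX3CR1-DTR colon lies below colon day 12, Ppard above it, and Pparg within or near it apart from the library of 106.

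Among the smaller differences from the graft, the calls of Nr1h2 and Rxrb depended on the scaling. Rxra, Nr1h2 and Rxrb were higher in CX3CR1-DTR colon by 0.88 ± 0.19, 0.63 ± 0.19 and 0.46 ± 0.18 (edgeR adjusted p = 0.000628, 0.00722 and 0.0312). Scaled to library totals, Nr1h2 and Rxrb were not called (adjusted p = 0.117 and 0.429), and Rxrb was also lost without graft replicate 1 or 2 or CX3CR1-DTR replicate 1 or 6 (0.117 to 0.158). The equal-variance test did not call Ppargc1a, Nr1h2 or Rxrb against the graft (adjusted p = 0.0604, 0.0824 and 0.271). On the scale of reads on genes, epithelial markers summed to 193839 to 251714 in these libraries and macrophage markers to 13380 to 26525, and the part of either in the differences was not tested. Per 10000 epithelial marker reads, Ppargc1a had 0.324 to 2.69 reads in CX3CR1-DTR colon and 9.96 to 25.8 in colon on day 12, and Ppard had 138 to 168 and 29.9 to 60.4. These ranges did not overlap. Both tables kept 1 transcript for Ppargc1a and Pparg with the same 3′ end in mm9 (51845488 on chromosome 5 and 115440419 on chromosome 6), although the transcripts start at different positions. The lists also differed. Of 16 PPAR targets 3 were higher and 8 lower than in colon day 12, and of 14 LXR targets 3 were higher and 8 lower, with medians of -0.70 and -1.36 beside -0.11 over all genes, of which 25.2% were higher and 35.4% lower. Acadm, a mitochondrial enzyme of fatty acid oxidation, was lower by -6.24 ± 0.52 (adjusted p = 1.9e-07), and Hadha, another, was higher by 1.63 ± 0.25 (adjusted p = 5.48e-05). Whether both tables counted the same transcript of Acadm and of Hadha was not checked.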

How the data were processed

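Libraries were prepared with a 3′-end protocol derived from MARS-seq. Per the labels and methods, the authors aligned reads with HISAT (0.1.6) to mm9 and counted sense reads in exons with HOMER, and deposited raw counts per gene in 2 tables. Another 52 columns could not be matched to a sample label and were not used. Depth was 591817 to 5228664 reads on genes, and 3 counts correspond to 3.51 to 27.6 normalised reads.

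The 25 libraries of 7 groups were fitted together with edgeR (4.0.16, R 4.3.3) after TMM, testing genes with at least 50 normalised reads in at least 3 libraries by quasi-likelihood F-tests, with p-values adjusted by Benjamini-Hochberg and called at 0.05. The CX3CR1-DTR fit held 13 libraries. The labels do not say that replicates are separate animals, so p-values measure the spread between these libraries. In 51 replicate pairs the counts differed by a chi-square of at least 5.21 per degree of freedom, so no library was counted as a repeat. Scripts were tested on simulated data. DESeq2 (1.42.0), library totals, no filter, the compared groups alone, an equal-variance test per gene (the kind of test the study names) on log2(value + 50), a scale chosen here, the unused colon day 8 library, the ileum day 4 libraries of experiment 1 and each library in turn were tried as alternatives.

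Experiments were taken from the dates in the labels. The label of ileum day 8 replicate 2 gives a year earlier than the others of the same day and month, which was read as a slip. Deviations of libraries of the same experiment in different groups correlated with a mean r of 0.016 (96 pairs, -0.477 to 0.517), against -0.0095 for different experiments (171 pairs, -0.45 to 0.395). The labels do not say whether colon and ileum of the same date came from the same animals. This check pools all pairs of groups and cannot show it, and the segments were compared without pairing.

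The members and lists were chosen with earlier results of these data known. All 8 members were named, and per list and comparison the 3 called genes of largest fold change whose groups did not overlap and whose higher mean was at least 200 normalised reads. For list genes in the CX3CR1-DTR comparisons, this rule was applied across unlike scales. CD11c-DTR libraries were counted per mapped reads there and CX3CR1-DTR libraries per reads on genes. Some genes that this rule selects are not reported here. The 5 genes of highest Pearson r were named for 3 members. Promoter windows come from RefSeq (GRCm38.p6) and were placed in mm9 by exact match, 1 match each for 13 windows of the 8 genes.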

Additional observations from a re-analysis of the deposited data

Results flagged for a closer look

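Among 40 groups of 4 to 10 libraries tested for a single library far from the others, 3 were picked out, and chance picks out about 1 in 20. In ileum on day 4, replicate 4 had 592 normalised reads of Nr1h2, against 416 to 446 in the other 3 libraries. In the same group, replicate 3 had 691 of Rxra, against 328 to 366 in the others. In ileum on day 12, replicate 2 had 71.4 of Ppargc1a, against 23.7 to 29.4 in the others.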

How the results depend on the processing

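Of the values for single members, 92 of 94 kept direction and call with DESeq2, 89 of 94 in the groups alone and without the filter, 78 of 94 with library totals, 71 of 94 with the equal-variance test (14 lost the call and 6 turned), 73 of 78 with experiment as a replicate block, 71 of 78 without experiment 1 and with all 4 colon day 8 libraries, and 2114 of 2158 when 1 library was left out. The cause of the changes was not tested. Those that turned direction were not called. Against the graft, Rxra in colon on day 8 was 0.02 with the block, 0.07 with all 4 colon day 8 libraries and -0.23 to 0.13 leaving out 1 library. In ileum on day 4 it was -0.18 with library totals, -0.19 with the equal-variance test, -0.07 without experiment 1 and -0.10 to 0.42 leaving out 1 library. With library totals and the equal-variance test, Rxra was -0.21 and -0.22 on day 8 and -0.02 and -0.0045 on day 12, and Ppard -0.22 and -0.29 on day 8 and -0.18 and -0.17 on day 12. Between colon and ileum, Ppara on day 4 was -0.02 in the groups alone and -0.20 to 0.33 leaving out 1 library, and Pparg -0.21 to 0.53. On day 8 Ppara was 0.28 with library totals, 0.03 without the filter, 0.0026 in the groups alone, 0.03 with the block, 0.21 with the equal-variance test, 6.4e-05 with all 4 colon day 8 libraries and -0.15 to 0.19 leaving out 1 library. Pparg in CX3CR1-DTR colon against colon day 12 was -0.29 to 0.06.

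The 377 genes called between colon and ileum on day 4 became 1080 with DESeq2, 164 with library totals, 0 in the groups alone, 1265 with the block, 0 with the equal-variance test, 7 with all 4 colon day 8 libraries, 3069 without experiment 1 and 0 to 2090 leaving out 1 library, with 3 and 0 to 1 of the 8 genes called in the last 2 settings. With the equal-variance test, 2508 and 2510 genes, and 2 and 3 of the 8, were called on days 8 and 12. With all 4 colon day 8 libraries, the day 8 calls of Nr1h3 and Rxrb were lost, which left 3 of the 8. Leaving out 1 library gave 2653 to 4451 genes on day 8 and 3 to 5 of the 8 on both days. Between colon days 4 and 8 the equal-variance test called 1 gene. The 608 genes called between ileum days 4 and 8 became 994 with DESeq2, 380 with all 4 colon day 8 libraries, 0 to 1348 leaving out 1 library, and 0 in the groups alone, with the block, with the equal-variance test and without experiment 1. Of the 8 genes 0 were called in the last 4 settings, 1 with all 4 colon day 8 libraries, without the filter or with library totals, and 0 to 3 leaving out 1 library. Segment by time gave 160 genes and 1 of the 8 with DESeq2 for days 4 to 8 and 16 genes for days 4 to 12, and 0 to 249 and 0 to 63 genes, and 0 to 1 of the 8, leaving out 1 library. In CX3CR1-DTR colon against the graft, 5 of the 8 were called by the equal-variance test, beside 8205 of all 11718 genes tested. That test also lost Ppard in colon day 12 against the graft (adjusted p = 0.0533). Between colon and ileum it lost Ppard on days 8 and 12 (0.0686 and 0.0561) and Nr1h3 on day 8 (0.369). Between colon and ileum, library totals moved the share of higher genes among those called from 16.4 to 26.2% on day 4, 47.8 to 66.2% on day 8 and 47 to 56% on day 12.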
